A study of Mus musculus with 12 samples.

Results

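The genes described here are 10 transcription factor genes of the hair and skin epithelium, Trp63, Lhx2, Foxn1, Gata3 and the 6 Dlx genes Dlx1 to Dlx6, out of 24692 genes in the deposited expression table. They were chosen by symbol, and each has 1 entry. Expression was measured by RNA sequencing, as FPKM (sequenced fragments per kilobase of a transcript, relative to all mapped fragments), in cells sorted from back skin of male mice at postnatal day 26 to 27, when follicles are in early anagen, the start of a growth phase. All mice were of the Sox2:GFP/aSMA:dsRed strain, in which green fluorescence follows Sox2 and red fluorescence follows smooth muscle actin. There were 3 libraries each of dermal papilla, the signalling cluster at the follicle base; dermal sheath, the connective tissue around the follicle; dermal stem cells, which renew the sheath; and interfollicular dermis, the connective tissue between follicles. The replicates are numbered 1, 2 and 4 in dermal papilla and dermal stem cells, 1, 4 and 5 in dermal sheath (replicate 1 carries the label DSL1), and 1, 2 and 6 in interfollicular dermis. Dispase and collagenase freed the cells, which were stained with antibodies before sorting. Whether replicates are separate animals is not stated, and the p-values therefore cover only the variation among these samples, possibly technical. The populations are called papilla, sheath, stem cells and interfollicular dermis below.

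Trp63, Lhx2, Foxn1, Gata3 and Dlx3 are known as regulators of epithelial rather than mesenchymal cells of skin. Trp63 encodes p63, a relative of p53 that establishes and maintains the basal layer of stratified epithelia. Lhx2, a LIM homeodomain factor, is known in mouse follicles from the epithelial stem cell compartment. Foxn1 is the gene mutated in the nude mouse, whose hair shafts do not form properly, and Gata3 is known for inner root sheath development in the follicle as well as for T lymphocytes. The Dlx genes encode homeodomain proteins related to Distal-less of flies, and Dlx3 is the member known for the hair matrix and shaft.

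The labels and the mesenchymal markers did not go together in 6 of the 12 libraries. The summed level of 12 fibroblast genes ran from 13372 to 23942 FPKM in papilla, from 975 to 1921 in sheath, from 9350 to 11968 in stem cells and from 826 to 1556 in interfollicular dermis. Acta2, the smooth muscle actin gene whose reporter was used in sorting, read 20.5 to 86.4 FPKM in papilla, 35.8 to 76.0 in sheath, 850 to 901 in stem cells and 5.72 to 10.4 in interfollicular dermis. The names sheath and interfollicular dermis are therefore used below only as the libraries' labels. Between 10711 and 11810 genes reached 1 FPKM in a library, and the read depth behind the FPKM values is unknown. Estimated from the steps between low values, it ran from 0.633 (papilla replicate 4) to 1.93 (interfollicular dermis replicate 6) of that of stem cells replicate 2. Some genes that every cell uses were also near or at 0: Ppia, a peptidyl-prolyl isomerase, was listed at 0 in 5 libraries, so a value of 0 is given below only as listed.

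All 9 tested genes differed among the 4 populations, as did 56.8% of the 12774 genes tested (limma F test, adjusted p between 8.58e-06 for Dlx4 and 0.00875 for Gata3). The transcription factors were low in papilla and stem cells and high in the libraries labelled sheath and interfollicular dermis, with Gata3 and Dlx5 as the exceptions described below. Genes were tested where at least 3 libraries reached 1 FPKM, and Dlx6 did not pass this filter. Dlx4 passed it only through sheath and interfollicular dermis, so its difference from the other populations was favoured by the filter. With no filter the counts of members called were equal in every comparison.

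**Figure D1:**
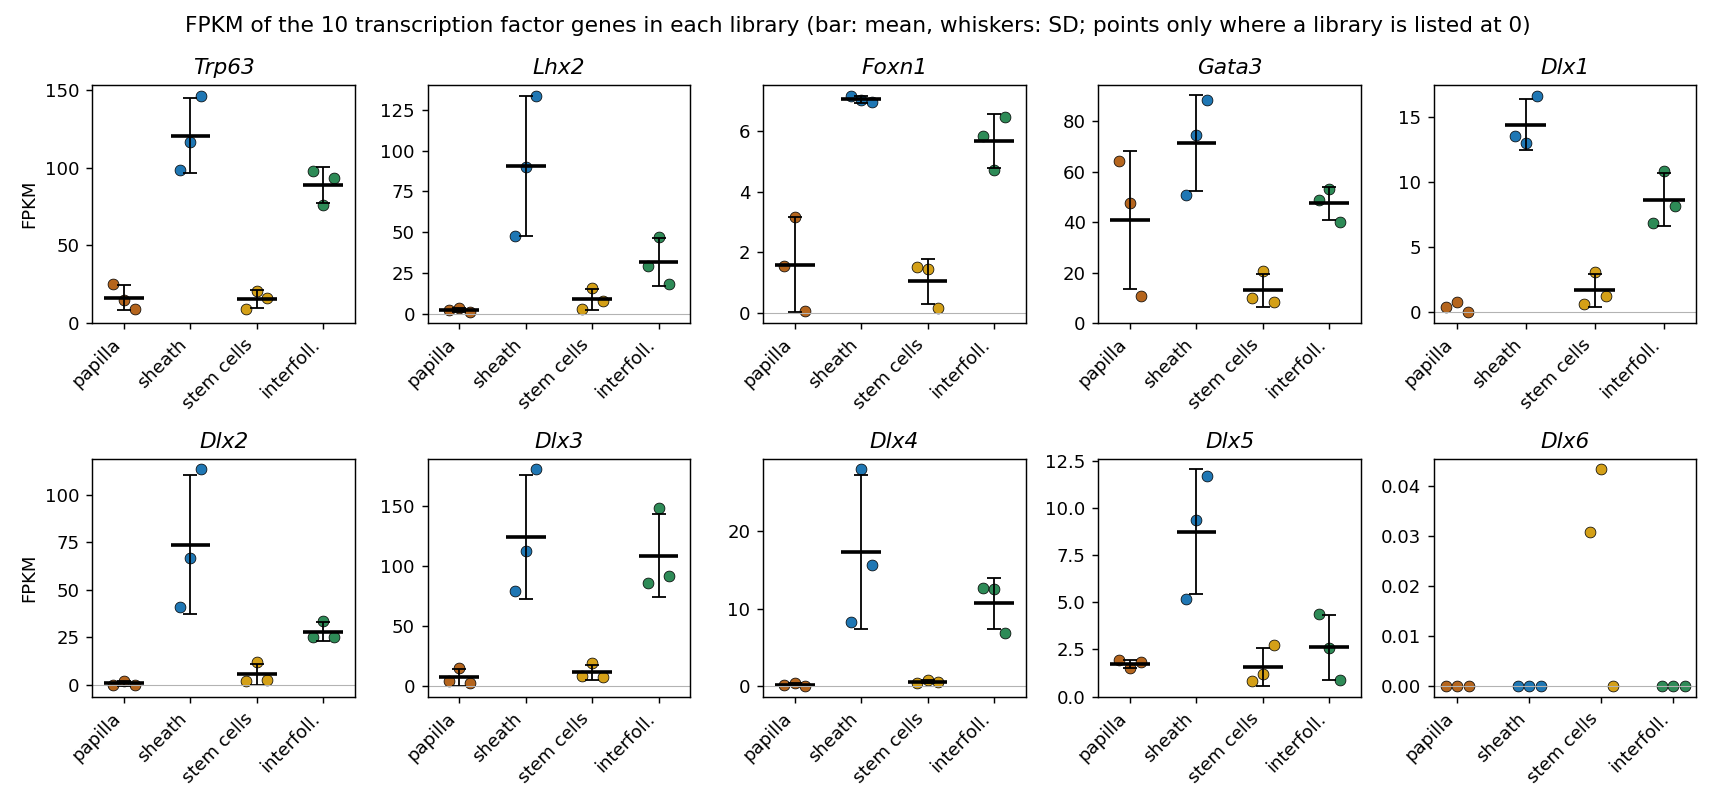
FPKM of each gene in each library, with 1 panel per gene, a linear axis of its own, and populations from left to right as papilla, sheath, stem cells and interfollicular dermis. Points are libraries in order of replicate number, bars are means and whiskers SD over 3 libraries, drawn where no library was listed at 0; Trp63 lies at 8.86 to 24.8 FPKM in papilla and at 98.7 to 147 FPKM in sheath.

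Trp63 was read at 24.8, 14.8 and 8.86 FPKM in papilla, at 98.7, 116 and 147 FPKM in sheath, at 9.23, 20.8 and 16.4 FPKM in stem cells, and at 98.1, 75.8 and 93.2 FPKM in interfollicular dermis. The lowest sheath or interfollicular library lay above the highest papilla or stem cell library, and papilla and stem cells overlapped. The means were 16.1 ± 8.04 FPKM in papilla, 121 ± 24.2 in sheath, 15.5 ± 5.84 in stem cells and 89.0 ± 11.7 in interfollicular dermis (SD, n = 3 each). On the log2(FPKM + 1) scale, on which all differences here are given, Trp63 was higher in sheath than in stem cells by 2.93 (SE 0.35, adjusted p = 4.08e-05). It was lower in papilla than in sheath (-2.92, adjusted p = 3.90e-05) and than in interfollicular dermis (-2.49, adjusted p = 0.000176), and lower in stem cells than in interfollicular dermis (-2.51, adjusted p = 0.000158). Papilla and stem cells were not separated by the test: the difference was 0.02, with a 95% interval from -0.74 to 0.77. The gene lies on chromosome 16, from 25683763 to 25892088 on the plus strand of GRCm38.p6.

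Lhx2 was read at 2.19, 3.30 and 0.981 FPKM in papilla, at 47.8, 89.7 and 134 FPKM in sheath, at 2.93, 15.9 and 7.78 FPKM in stem cells, and at 29.2, 47.3 and 18.2 FPKM in interfollicular dermis. The sheath libraries stood highest, though their lowest library was close to the highest interfollicular one, and stem cell replicate 1 fell among the papilla libraries. The mean of 2.16 ± 1.16 FPKM in papilla and that of 90.4 ± 42.9 in sheath differ 41.9-fold, a log2 difference of -4.81 (SE 0.53, adjusted p = 2.27e-05). Lhx2 was also higher in sheath than in stem cells (3.33, adjusted p = 0.000344) and lower in papilla than in interfollicular dermis (-3.34, adjusted p = 0.000433). In stem cells, with a mean of 8.87 ± 6.54 FPKM, against 31.6 ± 14.7 in interfollicular dermis, it was lower (-1.86, adjusted p = 0.0154). That call was lost without stem cells replicate 1 (-1.32, adjusted p = 0.0727) and without interfollicular dermis replicate 2 (-1.53, adjusted p = 0.0687). Lhx2 spans 38339271 to 38369737 on the plus strand of chromosome 2.

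Foxn1 was the lowest of the genes outside the Dlx family. It was read at 1.55, 3.17 and 0.0448 FPKM in papilla, at 7.16, 7.03 and 6.94 in sheath, at 1.5, 1.43 and 0.167 in stem cells, and at 5.82, 4.73 and 6.47 in interfollicular dermis. The sheath libraries were nearly equal and lay above all others, while replicate 4 was lowest in both papilla and stem cells. Foxn1 averaged 7.04 ± 0.112 FPKM in sheath and 1.03 ± 0.751 in stem cells (SD, n = 3 each), a log2 difference of 2.06 (SE 0.45, adjusted p = 0.00266). It was lower in papilla than in sheath (-1.85, adjusted p = 0.00443) and than in interfollicular dermis (-1.57, adjusted p = 0.0134), and lower in stem cells than in interfollicular dermis (-1.79, adjusted p = 0.00751). Without sheath replicate 1 and interfollicular dermis replicate 6, an alternative chosen after seeing the data, the difference between papilla and interfollicular dermis did not pass (-1.49, adjusted p = 0.0520).

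Gata3 was the gene with the widest spread between papilla libraries, at 64.4, 47.7 and 10.5 FPKM. It was read at 50.8, 74.6 and 88.4 FPKM in sheath, at 9.98, 20.5 and 8.42 in stem cells, and at 48.9, 53.2 and 40.2 in interfollicular dermis. Papilla replicates 1 and 2 thus lay among the sheath and interfollicular libraries, and papilla replicate 4 lay among the stem cell libraries. Gata3 was higher in sheath than in stem cells (2.43, SE 0.53, adjusted p = 0.00272) and lower in stem cells than in interfollicular dermis (-1.88, adjusted p = 0.0140). No comparison with papilla passed: the differences were -1.08 from sheath (adjusted p = 0.104), 1.35 from stem cells (adjusted p = 0.134) and -0.53 from interfollicular dermis (adjusted p = 0.433). Without papilla replicate 4, Gata3 was higher in papilla than in stem cells (2.11, adjusted p = 0.00368), and without papilla replicate 1 it was lower than in sheath (-1.57, adjusted p = 0.0308).

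Papilla replicate 4, the lowest papilla library for Gata3, was also the lowest in keratinocyte markers. The summed level of the 9 differentiated keratinocyte genes in the table was 5425, 5612 and 1462 FPKM in papilla replicates 1, 2 and 4, and that of 15 basal keratinocyte genes was 1527, 1768 and 687 FPKM. Replicate 4 was lowest in both sums, while replicate 1, the highest for Gata3, was below replicate 2 in both. All 15 basal genes and 8 of the 9 differentiated genes reached 1 FPKM in every papilla library, and none of either list was at 0 throughout. T and innate lymphoid cell genes, which matter because lymphocytes also use Gata3, summed to 38.7, 51.4 and 18.9 FPKM in the same papilla libraries. Over populations that lymphoid sum ran from 18.9 to 51.4 FPKM in papilla, from 10.6 to 51.2 in sheath, from 4.35 to 29.6 in stem cells and from 23.3 to 111 in interfollicular dermis. Of its 11 genes, 4 reached 1 FPKM in every papilla library, 1 in every sheath library, 2 in every stem cell library and 5 in every interfollicular library, and none was at 0 in all 12. The part of either cell type in the Gata3 values was not tested. In sorted bulk samples such as these, fewer cells of a type and less RNA per cell cannot be told apart.

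The Dlx genes are arranged as pairs on opposite strands. Dlx1 and Dlx2 lie 9426 bases apart on chromosome 2, Dlx3 and Dlx4 15150 bases apart on chromosome 11, and Dlx5 and Dlx6 9830 bases apart on chromosome 6. Dlx3 was the highest Dlx gene in all 12 libraries, and no Dlx gene was lower than Dlx6 in any. Dlx2 had the largest log2 difference between populations, and the 150 bases before its RefSeq start (GRCm38.p6, chr2:71546755-71546904, minus strand) are shown with the motif matches in capitals. Beside them stand 30 bases upstream of a Foxn1 start (chr11:78386619-78386648, minus strand). They were chosen because they carry the homeodomain core TAATTA that Dlx and Lhx proteins are known to bind. That start and these 30 bases lie inside the annotated Foxn1 gene, whose span reaches to 78386783.
Dlx2: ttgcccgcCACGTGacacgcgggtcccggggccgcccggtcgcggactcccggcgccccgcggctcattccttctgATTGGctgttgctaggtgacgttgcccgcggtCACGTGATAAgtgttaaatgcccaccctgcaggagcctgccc
Foxn1: agctgatatcaTAATTATTGGctcacccag

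Both strands of the 250 bases before the start were searched for the CCAAT box, the homeodomain core TAATTA, the GATA factor core GATAA, the E-box CACGTG, the TATA box TATAAA and the p53 family half-site, in the 5 of the 10 genes whose promoter was at hand (Lhx2, with 2 starts, Foxn1, Gata3, Dlx1 and Dlx2). Dlx2 held CACGTG at -142 and -42 from the start, GATAA at -37, which overlaps the second CACGTG, and CCAAT, read on the other strand as ATTGG, at -74. Foxn1 held TAATTA at -29 with an overlapping CCAAT, again as ATTGG, at -24, and a p53 family half-site at -106. The windows of Lhx2, Gata3 and Dlx1 held none of the searched letters. Only the start used for Dlx2 is the outer end of the annotated gene. The starts used for Lhx2, Foxn1, Gata3 and Dlx1 lie inside the annotated gene, so their windows lie wholly or partly within it. Of 32851 promoter windows of that length, 33.8% held CCAAT, 22.6% GATAA, 12.4% TATAAA, 7.13% the p53 family half-site, 6.02% CACGTG and 4.84% TAATTA. A match describes the sequence only and is not evidence that a factor binds there.

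Dlx3 was read at 3.73, 15.1 and 2.08 FPKM in papilla, at 78.9, 112 and 180 FPKM in sheath, at 8.02, 18.6 and 7.38 FPKM in stem cells, and at 86.1, 148 and 91.7 FPKM in interfollicular dermis. Sheath and interfollicular libraries were mixed in order, and so were papilla and stem cell libraries. Dlx3 averaged 124 ± 51.8 FPKM in sheath and 11.3 ± 6.31 in stem cells (3.37, SE 0.54, adjusted p = 0.000357). It was lower in papilla than in sheath (-4.26, adjusted p = 5.98e-05) and than in interfollicular dermis (-4.11, adjusted p = 0.000117). Between stem cells and interfollicular dermis, where it averaged 109 ± 34.3 FPKM, the difference was -3.22 (adjusted p = 0.000644), the largest of any of the 9 genes in that comparison.

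Dlx4, the neighbour of Dlx3, was far lower but followed the same division. It was read at 0.244, 0.420 and 0.0803 FPKM in papilla, at 8.30, 27.9 and 15.5 in sheath, at 0.379, 0.764 and 0.573 in stem cells, and at 12.6, 12.6 and 6.89 in interfollicular dermis. No papilla or stem cell library reached 1 FPKM, and all sheath and interfollicular libraries exceeded 6 FPKM. Dlx4 was higher in sheath than in stem cells (3.39, SE 0.38, adjusted p = 2.67e-05) and lower in stem cells than in interfollicular dermis (-2.86, adjusted p = 0.000112). It was lower in papilla than in sheath (-3.73, adjusted p = 1.31e-05) and than in interfollicular dermis (-3.19, adjusted p = 5.82e-05).

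Dlx2 was read at 0.157, 2.27 and 0.118 FPKM in papilla, at 41.1, 66.5 and 113 FPKM in sheath, at 2.36, 11.9 and 2.75 FPKM in stem cells, and at 25.4, 33.7 and 25.1 FPKM in interfollicular dermis. Here the 4 populations stood in an order without overlap, with papilla lowest, then stem cells, interfollicular dermis and sheath. The lowest and the highest step of that order did not pass, however: papilla against stem cells differed by -1.76 (adjusted p = 0.0651, and 0.0108 with the replicate number as a block), and sheath against interfollicular dermis by 1.25 (adjusted p = 0.284). The other comparisons did, with differences of -5.41 in papilla against sheath (SE 0.54, adjusted p = 1.24e-05), 3.65 in sheath against stem cells (adjusted p = 0.000217), -4.15 in papilla against interfollicular dermis (adjusted p = 0.000115) and -2.40 in stem cells against interfollicular dermis (adjusted p = 0.00438).

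Dlx1 was below Dlx2 in all libraries but papilla replicate 1. Dlx1 was read at 0.373 and 0.800 FPKM and listed at 0 in papilla replicates 1, 2 and 4, and read at 13.6, 13.03 and 16.7 in sheath, at 0.654, 3.10 and 1.27 in stem cells, and at 6.88, 10.9 and 8.19 in interfollicular dermis. The sheath libraries lay above the interfollicular ones, and papilla and stem cells overlapped. Dlx1 was lower in papilla than in sheath (-3.50, SE 0.35, adjusted p = 1.13e-05) and than in interfollicular dermis (-2.81, adjusted p = 7.57e-05). It was higher in sheath than in stem cells (2.62, adjusted p = 9.21e-05) and lower in stem cells than in interfollicular dermis (-1.93, adjusted p = 0.00105).

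An antisense gene lies over Dlx1. Dlx1as was read at 0.265 FPKM in papilla replicate 1 and listed at 0 in replicates 2 and 4. It was read at 7.78, 7.36 and 7.55 FPKM in sheath and at 0.219, 1.89 and 0.318 FPKM in stem cells. In interfollicular dermis it was listed at 0 in replicate 1 and read at 1.44 and 1.56 FPKM in replicates 2 and 6. Dlx1as was higher in sheath than in interfollicular dermis by 2.22 (SE 0.40, adjusted p = 0.0132), while Dlx1 differed by 0.69 between them (adjusted p = 0.378). Whether the authors' counting used strand is not given in the sources used here, so reads of Dlx1 and Dlx1as cannot be told apart where they overlap. Annotated antisense genes also overlap Lhx2, Gata3, Dlx4 and Dlx6.

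Dlx5 differed from the other Dlx genes in interfollicular dermis. It was read at 1.92, 1.52 and 1.81 FPKM in papilla, at 5.18, 9.37 and 11.7 in sheath, at 0.816, 1.22 and 2.72 in stem cells, and at 4.35, 2.57 and 0.904 in interfollicular dermis. Only the sheath libraries as a group stood apart from all others. Interfollicular replicate 1 lay above every papilla and stem cell library, while interfollicular replicates 2 and 6 lay among them. Dlx5 was higher in sheath than in stem cells (1.92, SE 0.41, adjusted p = 0.00242) and lower in papilla than in sheath (-1.76, adjusted p = 0.00347). Against interfollicular dermis the differences were 1.49 in sheath (95% interval 0.61 to 2.38, adjusted p = 0.0869), -0.27 in papilla (adjusted p = 0.616) and -0.43 in stem cells (adjusted p = 0.438). Dlx6 was listed at 0 in all libraries except stem cells replicates 1 and 2, at 0.0307 and 0.0432 FPKM.

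The make-up of the summed Dlx level also differed between libraries. That sum, over the 6 genes, was 6.43, 20.1 and 4.09 FPKM in papilla, 147, 229 and 338 in sheath, 12.3, 35.7 and 14.7 in stem cells, and 135, 208 and 133 in interfollicular dermis. Dlx3 held 50.8% to 75.05% of it in papilla, 49.0% to 53.6% in sheath, 50.2% to 65.4% in stem cells and 63.6% to 71.3% in interfollicular dermis. Dlx2 was second in all libraries but papilla replicates 1 and 4, where Dlx5 was second with 29.9% and 44.4%. The share of Dlx2 was 28.0% to 33.5% in sheath and 16.2% to 18.9% in interfollicular dermis, which did not overlap. Nor did the shares of Dlx3 in these populations. In stem cells the share of Dlx2 was 18.7% to 33.5%, which overlapped both, and in papilla it was 2.44% to 11.3%. These shares are given without a test.

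Set side by side, the comparisons divide the libraries by population pair, as the plot of differences shows. In sheath against stem cells, all 9 tested genes were higher, where 24.3% of all genes tested were higher and 19.6% lower. Papilla against sheath had 8 of 9 lower (all but Gata3), against 33.4% of all genes lower and 16.4% higher. In stem cells against interfollicular dermis, 8 of 9 were lower (all but Dlx5), against 19.7% lower and 17.9% higher. Papilla against interfollicular dermis had 7 of 9 lower (all but Gata3 and Dlx5), against 28.6% lower and 13.7% higher. These comparisons share libraries and are not independent of each other.

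The median log2 difference over the 9 genes was 2.93 in sheath against stem cells, where that of all genes was 0.13. It was -3.50 in papilla against sheath (all genes -0.36), -1.93 in stem cells against interfollicular dermis (all genes -0.14) and -2.81 in papilla against interfollicular dermis (all genes -0.32). In papilla against stem cells it was -0.33 (all genes -0.25), and in sheath against interfollicular dermis 0.55 (all genes 0.05). The deposited values were used here without further scaling between libraries. A median-of-ratios correction shifted the all-gene median by 0.35 in papilla against sheath, its largest shift, without changing which of the 9 genes passed.

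**Figure D2:**
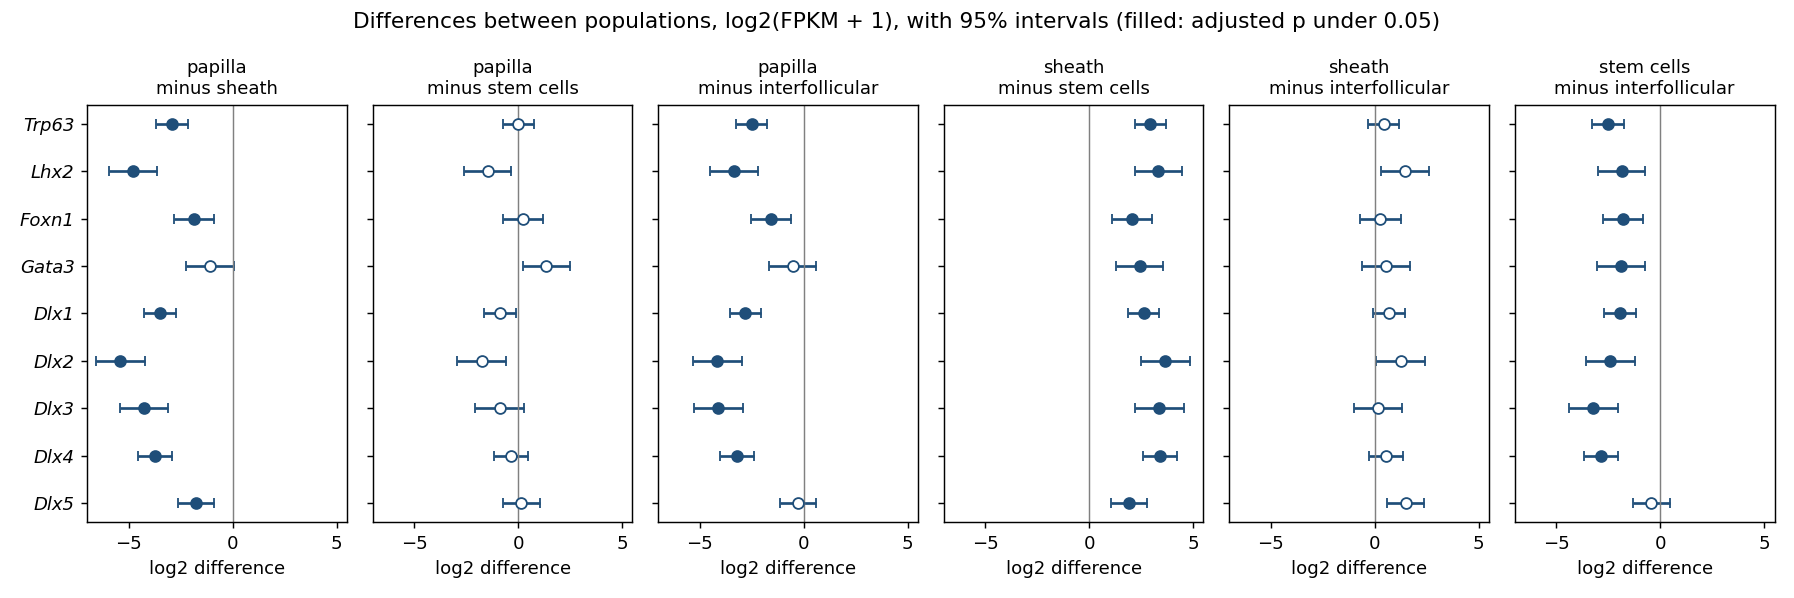
Log2 differences of the 9 tested genes between populations, on the log2(FPKM + 1) scale, with 95% intervals from limma; the population named first lies to the right of 0 where it is higher, and filled points passed at an adjusted p under 0.05. The points of sheath minus stem cells all lie right of 0, from 1.92 for Dlx5 to 3.65 for Dlx2, and none is filled in papilla minus stem cells or in sheath minus interfollicular dermis.

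Within each of the population pairs, no transcription factor passed. In papilla against stem cells, 0 of the 9 genes passed in limma. At the same adjusted threshold 2.31% of all genes were higher and 6.38% lower. An unadjusted limma p under 0.05 was reached by Dlx2 (-1.76), Lhx2 (-1.48), Gata3 (1.35) and Dlx1 (-0.88). Gata3 thus stood on the other side of 0 from the 3 homeobox genes. The share of all genes at that unadjusted threshold is not given, so the number of such genes cannot be set against it. Same-numbered libraries of these populations deviated together over all genes. The replicate number was then added as a block, fitted over all 12 libraries and not over these populations alone. With this block 2 of the 9 genes passed: Dlx2 (adjusted p = 0.0108) and Lhx2 (adjusted p = 0.0333) were lower in papilla. Over all alternatives tried the adjusted p ran from 0.0108 to 0.222 for Dlx2 and from 0.0333 to 0.331 for Lhx2. In every numbered pair the papilla library had less Dlx2 than the stem cell library, at 0.157 against 2.36, 2.27 against 11.9 and 0.118 against 2.75 FPKM. The same held for Lhx2, at 2.19 against 2.93, 3.30 against 15.9 and 0.981 against 7.78 FPKM.

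In sheath against interfollicular dermis, 0 of the 9 genes passed in limma, where only 0.939% of all genes were higher and 1.32% lower. The share of all genes with an unadjusted p under 0.05 is not given here either. That level was reached by Dlx5 (1.49), Lhx2 (1.47, 95% interval 0.32 to 2.62, adjusted p = 0.196) and Dlx2 (1.25, 95% interval 0.08 to 2.43). The means of these 3 genes were 8.74, 90.4 and 73.6 FPKM in sheath, against 2.61, 31.6 and 28.1 FPKM in interfollicular dermis. The smallest difference was that of Dlx3 (0.15, 95% interval -1.02 to 1.32). The intervals leave room for differences of more than 1 on the log2 scale in either direction for Dlx3, so a missed threshold does not show equal levels.

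The genes tended to be high or low together in a library. Among papilla libraries, replicate 2 was the highest for 6 of the 9 genes and replicate 4 the lowest for 8, where over all 12774 tested genes these libraries were highest for 39.9% and lowest for 42.0%. Among sheath libraries, replicate 5 was the highest for 7 genes (36.0% of all genes) and replicate 1 the lowest for 7 (33.9%). Stem cells replicate 2 was the highest for 7 (36.7%) and replicate 1 the lowest for 6 (33.8%). In interfollicular dermis replicate 2 was the highest for 5 (28.7%) and replicate 6 the lowest for 5 (34.7%). The order was not shared by all genes: Trp63 and Gata3 were highest in papilla replicate 1, and Dlx5 hardly varied among papilla libraries. Papilla replicate 4 was also the library with the lowest estimated depth, 0.633 of that of stem cells replicate 2. In the other populations the library lowest for the most genes had the highest estimated depth of its population. These were sheath replicate 1 (1.52), stem cells replicate 1 (1.41) and interfollicular dermis replicate 6 (1.93). The part of depth in this order was not tested.

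**Figure D3:**
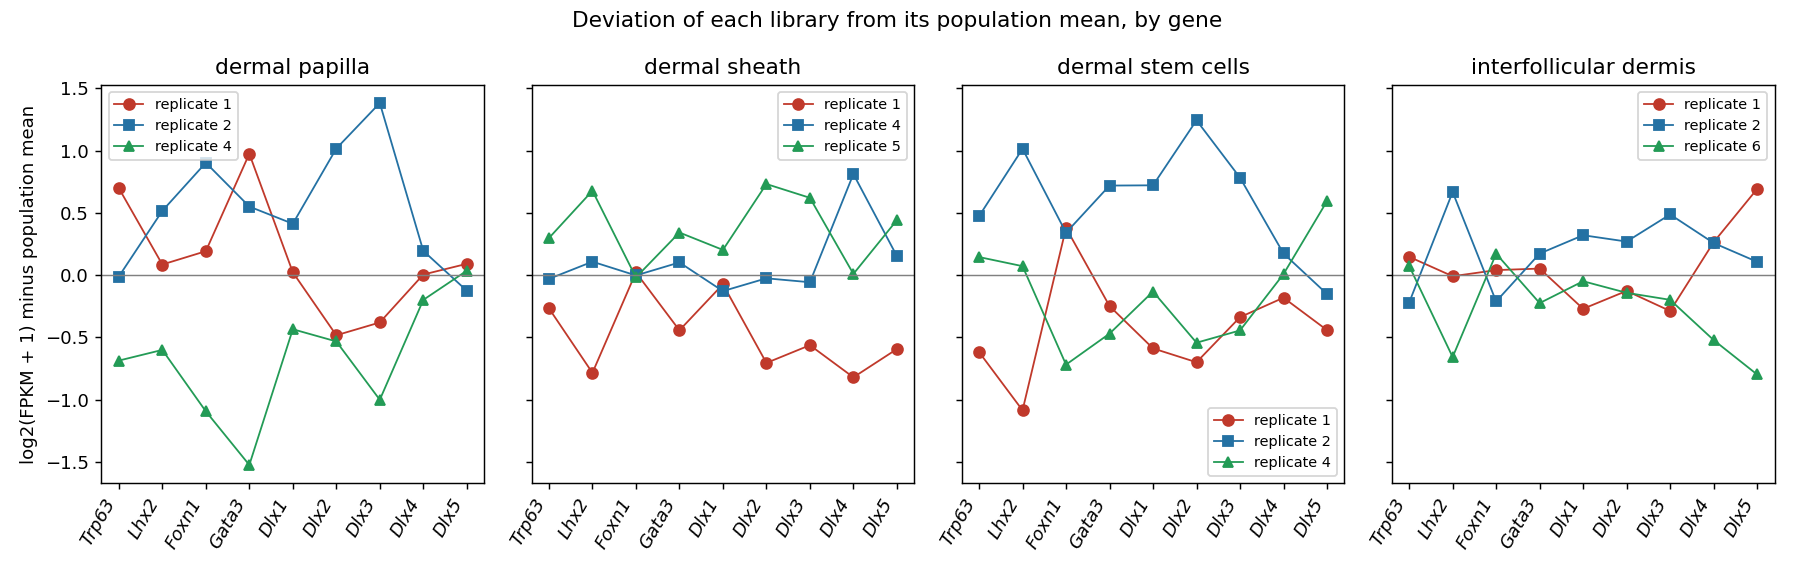
Deviation of each library from its population's mean, in log2(FPKM + 1), for the 9 tested genes, with 1 panel per population and lines joining the values of a replicate to guide the eye. Papilla replicate 4 lies below its mean for all genes but Dlx5, and stem cells replicate 2 lies above its mean for all genes but Dlx5.

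Other epithelial regulators were divided like these genes in part. Of 17 tested epidermal regulator genes, 11 were higher and 1 lower in sheath than in stem cells (median log2 difference 1.86; all genes 24.3% higher and 19.6% lower). In stem cells 12 were lower and 1 higher than in interfollicular dermis (median -1.57; all genes 19.7% lower and 17.9% higher). Grhl2, a grainyhead factor of epithelia, averaged 17.1 ± 2.36 FPKM in sheath and 1.66 ± 0.770 in stem cells (2.79, adjusted p = 2.46e-05). Zfp750, a p63 target that drives keratinocyte differentiation, averaged 30.2 ± 13.9 FPKM in papilla and 8.38 ± 3.44 in stem cells (1.67, adjusted p = 0.0128). Papilla against stem cells had 7 of the 17 genes higher and 1 lower (median 0.74; all genes 2.31% higher and 6.38% lower). In papilla 9 of the 17 were lower and 2 higher than in sheath (median -0.86, all genes 33.4% lower and 16.4% higher). Ehf, an ETS factor of epithelia, was 1 of those 2 (15.3 ± 9.67 FPKM in papilla against 1.09 ± 0.475 in sheath, a difference of 2.81, adjusted p = 0.000378). Its direction is opposite to that of the 8 transcription factors described above that passed there.

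Regulators of follicle epithelium were divided in part as well. Of 18 tested, 12 were higher and 3 lower in sheath than in stem cells (median 1.60; all genes 24.3% higher and 19.6% lower). In papilla 12 were lower and 3 higher than in sheath (median -1.54; all genes 33.4% lower and 16.4% higher). In stem cells 9 were lower and 1 higher than in interfollicular dermis (median -0.87; all genes 19.7% lower and 17.9% higher). Cux1, a homeobox gene of the inner root sheath lineage, averaged 279 ± 66.6 FPKM in sheath and 85.3 ± 12.7 in interfollicular dermis (1.68, adjusted p = 0.0197). In that comparison 3 of the 18 were higher and 0 lower (median 0.06, all genes 0.939% higher and 1.32% lower). Cux1 and Tbx1 are among these 3. Tbx1 averaged 21.7 ± 11.4 FPKM in sheath and 5.55 ± 1.43 in interfollicular dermis (1.70, adjusted p = 0.0337). Hoxc13, a homeobox gene of the hair shaft, averaged 12.6 ± 6.13 FPKM in sheath and 44.6 ± 12.2 in interfollicular dermis, a difference that did not pass (-1.82, adjusted p = 0.104). Lef1, the Wnt-responsive factor of hair precursors, was lower in stem cells than in interfollicular dermis (4.26 against 87.0 FPKM; -4.04, adjusted p = 0.000109).

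Genes known as p63 targets, many of which are also basal keratinocyte markers, are given beside Trp63. Of 20 tested, 12 were higher and 0 lower in sheath than in stem cells (median 1.68; all genes 24.3% higher), and 0 were higher and 13 lower in stem cells than in interfollicular dermis (median -1.43; all genes 19.7% lower). In papilla 9 were lower and 1 higher than in sheath (median -0.77; all genes 33.4% lower), and 9 were lower and 1 higher than in interfollicular dermis (median -0.70; all genes 28.6% lower). In papilla 3 were higher and 1 lower than in stem cells (median 0.63; all genes 2.31% higher and 6.38% lower). Jag2, a Notch ligand, averaged 1.26 ± 0.292 FPKM in papilla and 27.2 ± 9.54 in sheath (-3.59, adjusted p = 3.25e-05). Cdh3, the P-cadherin of basal and hair matrix cells, averaged 5.84 ± 2.72 FPKM in papilla and 56.6 ± 18.5 in sheath (-3.10, adjusted p = 2.62e-05). Krt14, in contrast, averaged 106 FPKM in papilla and 79.2 FPKM in sheath and did not pass (0.33, adjusted p = 0.489).

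Structural genes of the hair were less uniform. Of 18 tested hair shaft and inner root sheath genes, 2 were higher and 1 lower in sheath than in stem cells, with a median of -0.21 (all genes 24.3% higher and 19.6% lower), and 6 were lower in stem cells than in interfollicular dermis (median -0.38; all genes 19.7% lower). Krt28, an inner root sheath keratin, averaged 173 ± 23.6 FPKM in sheath and 19.1 ± 14.03 in stem cells (3.36, adjusted p = 0.00186). Krt35, a hair cortex keratin, averaged 8.38 FPKM in sheath and 308 FPKM in interfollicular dermis (-5.03, adjusted p = 0.000443).

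Among 24 family relatives and cofactors, 12 passed the filter. Ldb1, whose protein is the partner of LIM homeodomain factors such as LHX2, averaged 32.2 ± 8.50 FPKM in papilla and 77.7 ± 10.2 in sheath (-1.26, adjusted p = 0.000496). Its relative Ldb2 went the other way, at 17.7 FPKM in papilla and 1.84 FPKM in sheath (2.85, adjusted p = 0.000178). Lmo4, whose protein also binds LDB1, averaged 221 FPKM in sheath and 83.9 FPKM in stem cells (1.37, adjusted p = 0.00634). Trp53, the p53 gene, averaged 27.4 FPKM in sheath and 10.1 FPKM in stem cells (1.31, adjusted p = 0.00891). Over this list the counts in sheath against stem cells were 5 higher and 2 lower, with a median of 0.48 (all genes 24.3% higher and 19.6% lower).

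Of 9 tested neighbours and antisense genes of the 10 loci, 3 were higher and 0 lower in sheath than in stem cells (median 0.75), a count near the background of 24.3% of all genes higher. Kat7, a histone acetyltransferase gene near Dlx3 and Dlx4, averaged 17.4 FPKM in sheath and 8.03 FPKM in stem cells (1.03, adjusted p = 0.00151). Tac1, the substance P precursor gene near Dlx5 and Dlx6, averaged 8.999 FPKM in papilla and 0.399 FPKM in sheath (2.43, adjusted p = 0.00476), opposite to Dlx5. Cldn1, a tight junction gene near Trp63, averaged 109 FPKM in papilla and 31.2 FPKM in stem cells (1.61, adjusted p = 0.0339), where Trp63 differed by 0.02. The distances of Kat7, Tac1 and Cldn1 from these loci were not measured, so they need not be adjacent genes.

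The 15 basal keratinocyte genes summed to 687 to 1768 FPKM in papilla, 1614 to 1807 in sheath, 433 to 911 in stem cells and 1554 to 1887 in interfollicular dermis. Papilla replicates 1 and 2, at 1527 and 1768 FPKM, were close to the sheath in this sum. Perp alone gave 718 and 782 FPKM of it there, against 564 to 640 FPKM in sheath. Trp63 was read at 24.8 and 14.8 FPKM and Dlx2 at 0.157 and 2.27 FPKM in the same papilla libraries. Of the basal genes, 9 of 15 were higher in sheath than in stem cells (median 1.49; all genes 24.3% higher), and 10 were lower in stem cells than in interfollicular dermis (median -1.46; all genes 19.7% lower). Only 3 of the 15 were lower in papilla than in sheath (median -0.30), no more than among all genes, of which 33.4% were lower (median -0.36). Krt5, a basal layer keratin, averaged 140 ± 58.6 FPKM in papilla and 395 ± 24.6 in sheath (-1.57, adjusted p = 0.00287). Epcam, an epithelial adhesion gene, averaged 78.3 ± 39.6 FPKM in papilla and 90.1 ± 10.95 in sheath, which did not pass (-0.35, adjusted p = 0.459).

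Differentiated keratinocyte genes ran against the transcription factors in papilla and sheath. They summed to 1462 to 5612 FPKM in papilla, 71.9 to 330 in sheath, 800 to 1457 in stem cells and 684 to 958 in interfollicular dermis. In papilla against sheath 5 of the 9 genes tested were higher and 0 lower (median 2.17; all genes 16.4% higher), among them Krt10, a keratin of suprabasal epidermis (1528 FPKM in papilla and 53.4 FPKM in sheath; 5.06, adjusted p = 7.93e-05). Genes of the cell cycle summed to 18.0 to 37.7 FPKM in papilla, 380 to 503 in sheath, 26.0 to 74.2 in stem cells and 258 to 344 in interfollicular dermis, and 10 of 10 were higher in sheath than in stem cells (median 2.77; all genes 24.3% higher). Fibroblast genes were lower in sheath than in stem cells in 12 of 12 (median -3.90; all genes 19.6% lower). Melanocyte genes summed to 199.9 to 826 FPKM in papilla, 21.1 to 30.4 in sheath, 16.97 to 91.8 in stem cells and 166 to 951 in interfollicular dermis. Endothelial genes summed to 10.7 to 131 FPKM in papilla, 8.83 to 55.2 in sheath, 22.6 to 86.4 in stem cells and 20.7 to 90.5 in interfollicular dermis. Schwann cell genes summed to 19.8 to 115 FPKM in papilla, 4.31 to 8.97 in sheath, 7.45 to 21.0 in stem cells and 14.4 to 23.2 in interfollicular dermis. The median sum of each of these 3 lists was lowest in sheath, where most of the transcription factors were highest. The part of each of these markers in the levels of the 10 genes was not tested.

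**Figure D4:**
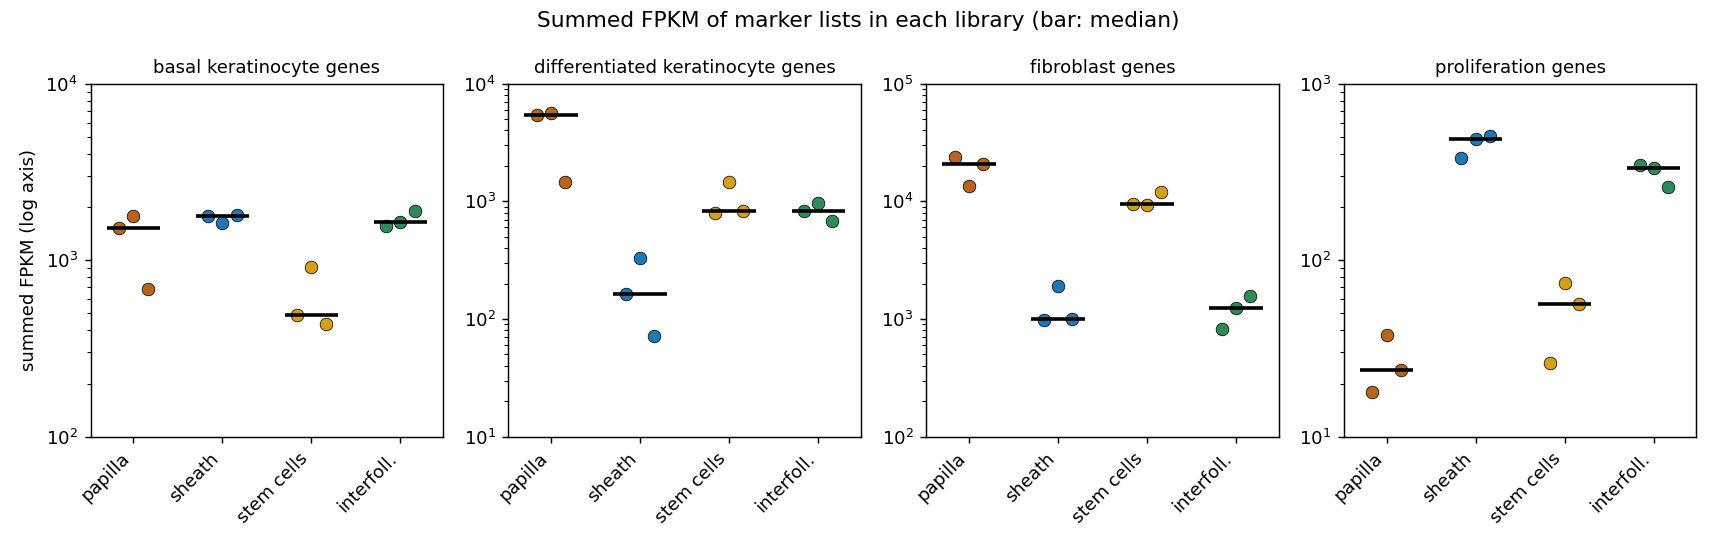
Summed FPKM of 15 basal keratinocyte, 9 differentiated keratinocyte, 12 fibroblast and 10 proliferation genes in each library, on log axes, with populations from left to right as papilla, sheath, stem cells and interfollicular dermis and bars at the median of 3 libraries. Fibroblast sums are at or above 9350 FPKM in papilla and stem cells and at or below 1921 FPKM in the other 6 libraries, while the basal keratinocyte sums of papilla replicates 1 and 2 are near those of sheath.

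The genes whose pattern over the 12 libraries was most like each of these genes were named by the 3 highest Pearson correlations of log2(FPKM + 1). For Trp63 these were Tinf2 (0.988), Cdc25a (0.983) and Cstf2 (0.981), for Lhx2 Prmt1 (0.985), Rrm2 (0.985) and Plk1 (0.983), and for Foxn1 Krt28 (0.979), Ap1m2 (0.969) and Marveld2 (0.968). For Gata3 they were Rab25 (0.962), F11r (0.959) and Lsr (0.955). Dlx1 was most like Shmt1 (0.995), Mcm5 (0.994) and Arhgap11a (0.992), and Dlx2 most like Tenm2 (0.995), Mycl (0.989) and Bcam (0.987). Dlx3 was most like Mycn (0.987), Traip (0.984) and Zfp296 (0.984), and Dlx4 most like Sgol2a (0.989), Rad54b (0.988) and Bcl11a (0.987). For Dlx5 the first of them were Sypl (0.954) and Matr3 (0.946).

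The libraries fall into 2 clusters, papilla with stem cells and sheath with interfollicular dermis, and any gene that differs between the clusters gains a high correlation from that alone. The number of genes with a correlation over 0.9 was 770 for Trp63, 763 for Lhx2, 221 for Foxn1 and 1066 for Dlx1. It was 914 for Dlx2, 921 for Dlx3 and 1021 for Dlx4, but 35 for Gata3 and 11 for Dlx5, the genes that departed from the common division. Within the 6 sheath and interfollicular libraries, the correlation of Lhx2 was 0.976 with Gata3 and 0.957 with Dlx2. Within the 6 papilla and stem cell libraries, Lhx2 had a correlation of 0.987 with Dlx1, of 0.925 with Dlx2 and of -0.111 with Gata3. With Foxn1 it was 0.327 in the sheath and interfollicular libraries and 0.130 in the papilla and stem cell libraries. Each set of 6 still holds 2 populations, so a difference between them also enters these correlations. These correlations are descriptions over libraries that share preparation and differ in depth.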

How the data were processed

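The authors deposited 1 table of FPKM values per gene and library. The submitters' processing notes name TopHat2 2.0.13, SAMtools, Cufflinks 2.2.1 and the mm10 build; roles, annotation and strand are not given in the sources used here. A pseudocount of 1 was added, log2 was taken, and limma 3.58.1 (R 4.3.3) fitted a mean for each of the 4 populations, with moderated variances that follow the expression level. A gene entered when 3 or more libraries reached 1 FPKM, which 12774 did. P-values are two-sided and adjusted by Benjamini-Hochberg over all genes within each comparison (threshold 0.05). The procedure was tested on simulated data. The members and lists were chosen with earlier results of these data known. From each list up to 4 genes with the largest differences could be named, and other genes were named after their values were seen. Positions and promoters are from RefSeq, GRCm38.p6, and overlaps from GENCODE. Same-numbered dermal papilla and dermal stem cell libraries deviated together, with correlations of 0.306, 0.241 and 0.389 for replicates 1, 2 and 4. Between different numbers of these populations the correlations ran from -0.333 to 0.125. The numbers were therefore taken to pair them, from this check and not the labels. Other pairs of populations did not meet the check. The highest correlation of all, 0.445, joined dermal sheath replicate 1 and interfollicular dermis replicate 6, so a shared deviation alone does not show pairing. One gene among those most like the members is not reported here.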

Additional observations from a re-analysis of the deposited data

How the results depend on the processing

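The counts of members called were recomputed under 20 alternatives (the F test without the 2-population fit). Of the 54 log2 differences of the 9 tested genes, 32 passed, and 637 of their 640 values under the alternatives kept direction and call, 3 lost the call (Lhx2 and Foxn1, given above with their values) and 0 reversed. In papilla against stem cells the count of 0 became 1 with a pseudocount of 0.1 (Dlx2, -3.10, adjusted p = 0.0454) and 2 with the replicate block, and leaving out 1 library gave 0 to 1: Dlx2 without papilla replicate 2 (-2.26, adjusted p = 0.0293), Lhx2 without stem cells replicate 1 (-2.02, adjusted p = 0.0479) and Gata3 without papilla replicate 4. The block changed no other call. Leaving out 1 library gave 9 in sheath against stem cells, 8 to 9 in papilla against sheath, 7 to 8 in stem cells against interfollicular dermis, 0 in sheath against interfollicular dermis, 7 in papilla against interfollicular dermis and 9 in the F test.

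Of all 1080 values, 10 changed sign, and none of these 10 had passed. In papilla against stem cells these were Trp63 without papilla replicate 1 (-0.33) or stem cells replicate 1 (-0.29), Foxn1 without papilla replicate 2 (-0.24), without stem cells replicate 4 (-0.14) or without replicate 2 of both (-0.066, chosen after seeing the data), Dlx4 under quantile normalization (0.011) and Dlx5 without stem cells replicate 1 (-0.067). In papilla against interfollicular dermis they were Gata3 without papilla replicate 4 (0.23) and Dlx5 without interfollicular dermis replicate 1 (0.075), and in sheath against interfollicular dermis Dlx3 without sheath replicate 5 (-0.16). Leaving out 1 library, these differences ranged up to 0.36 for Trp63, 0.76 for Foxn1 and 0.45 for Dlx5 in papilla against stem cells, down to -1.02 for Gata3 and -0.67 for Dlx5 in papilla against interfollicular dermis, and up to 0.43 for Dlx3 in sheath against interfollicular dermis. The cause was not tested. With 3 libraries per population and no read counts, differences of low genes such as Dlx4 and Foxn1 are understated by the pseudocount and their counting error is unknown.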
